A study of Mus musculus with 4 samples.

Results

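The 36 genes described here encode enzymes that make cholesterol and fatty acids, together with sterol regulatory element-binding protein (SREBP) control and sterol transport genes. They were taken from a list of names, and all 36 were matched by Ensembl identifier among the 12208 genes measured. Expression was profiled by RNA sequencing in mouse 3T3 cells, labelled a pre-osteoblast line. Cells received control treatment for 24 h, recombinant LTα1β2 for 24 h, control treatment for 48 h or LTα1β2 for 48 h, with 1 library in each of the 4 groups. LTα1β2 is the lymphotoxin heterotrimer that signals through the lymphotoxin β receptor. Values are CPM, counts per 1000000 reads on the listed genes. With 1 library a group, a fold at a single time has no replicate check, and its interval (95%, exact) covers counting error only.

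Cells build cholesterol from acetyl-CoA through mevalonate, farnesyl diphosphate, squalene and lanosterol, and fatty acids from the same acetyl-CoA through malonyl-CoA. SREBP transcription factors raise most genes of both routes. SCAP escorts the precursors from the endoplasmic reticulum to the Golgi for cleavage when sterol is low, and INSIG proteins hold them back when it is high. In cells of the osteoblast lineage, as in other cells, the products supply membranes and lipid-modified proteins.

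The promoters of 4 genes are shown because SREBPs are known to act beside NF-Y at CCAAT boxes and Sp1 at GC boxes, and because the genes stand for different roles and behaviours in the values that follow. They are Hmgcs1 (early mevalonate step), Insig1 (feedback), Hsd17b7 (late sterol step) and Fasn (fatty acid synthase). Sequences are from RefSeq (GRCm38.p6), 250 bases before to 50 after the annotated start, read 5′ to 3′ on the gene's strand. Capitals mark TCACNCCAC (a sterol regulatory element), CCAAT and GGGCGG (a GC box) on either strand. Hmgcs1 lies at chr13:119690101-119690400 (plus strand), Insig1 at chr5:28071162-28071461 (plus), Hsd17b7 at chr1:169969156-169969455 (minus) and Fasn at chr11:120824498-120824797 (minus).
Hmgcs1: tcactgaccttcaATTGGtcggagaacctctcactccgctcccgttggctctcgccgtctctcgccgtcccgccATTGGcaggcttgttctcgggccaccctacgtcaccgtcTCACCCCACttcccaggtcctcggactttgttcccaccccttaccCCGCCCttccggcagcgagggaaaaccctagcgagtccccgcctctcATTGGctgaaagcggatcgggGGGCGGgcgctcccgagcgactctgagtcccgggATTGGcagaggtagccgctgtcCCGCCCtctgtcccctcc
Insig1: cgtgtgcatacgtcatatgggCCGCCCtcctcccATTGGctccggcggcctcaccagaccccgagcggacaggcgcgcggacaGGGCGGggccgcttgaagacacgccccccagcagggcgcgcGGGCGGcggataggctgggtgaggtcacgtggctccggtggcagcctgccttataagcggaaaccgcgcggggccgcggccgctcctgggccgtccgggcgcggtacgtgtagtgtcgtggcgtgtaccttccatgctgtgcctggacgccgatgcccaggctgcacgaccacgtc
Hsd17b7: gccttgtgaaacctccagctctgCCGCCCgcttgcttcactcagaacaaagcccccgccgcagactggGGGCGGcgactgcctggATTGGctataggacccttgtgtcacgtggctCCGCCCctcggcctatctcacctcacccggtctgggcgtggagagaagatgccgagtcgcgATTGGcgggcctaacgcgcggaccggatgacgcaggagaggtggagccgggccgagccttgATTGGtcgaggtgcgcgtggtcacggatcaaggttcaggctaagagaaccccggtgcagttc
Fasn: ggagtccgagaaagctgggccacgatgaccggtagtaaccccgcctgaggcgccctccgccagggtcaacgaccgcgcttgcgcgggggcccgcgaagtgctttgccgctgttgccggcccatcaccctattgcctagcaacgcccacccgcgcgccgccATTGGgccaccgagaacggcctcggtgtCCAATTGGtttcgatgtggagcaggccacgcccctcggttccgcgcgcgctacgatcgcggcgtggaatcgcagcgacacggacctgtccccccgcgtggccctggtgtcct

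The Hmgcs1 window held TCACCCCAC, whose first base lies 137 bases before the start, with CCAAT boxes on both sides of it. In the Fasn window the capitals CCAATTGG are a pair of overlapping CCAAT boxes read from opposite strands. The RefSeq table held 37 promoters for 28 of the 36 genes. CCAAT occurred in 23 of the 37 (62.2%) against 37.4% of all 32851 promoters, and GGGCGG in 28 (75.7%) against 35.7%. All promoters were counted, without matching for expression or base content, and the differences were not tested. TCACNCCAC occurred in 1 of the 37 (2.7%) against 1.24%. The looser TCANNCCA, chosen after the first search, occurred in 6 (16.2%) against 15.7%. These matches describe letters in a window, and binding was not tested.

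Recovered depth was between 11355974 and 15995777 reads a library. The treated 48 h library stood apart: log2(CPM + 1) correlated with the other libraries at 0.9735 to 0.9816 across genes, against 0.9906 to 0.9952 among the other libraries. Weighted by reads, transcripts there had a median length of 2847 bases, and 3320 to 3403 bases elsewhere. Of 11 osteoblast markers 9 were measured (Alpl and Ibsp were not), and their summed CPM, mostly Col1a1 and Col1a2, was 37229 and 36490 in the controls and 26703 and 22711 in the treated libraries. In the additive limma fit 5 of the 9 fell (Runx2, Sp7, Col1a1, Dmp1 and Omd), against 2.27% of all genes, and Spp1 had ratios of treated to control of 1.159 at 24 h and 1.449 at 48 h. Of 8 adipocyte markers only Fabp4 was measured, at 1.94 and 1.45 CPM in the controls and 2.40 and 6.69 CPM in the treated libraries (24 h first). Of 7 macrophage markers 3 were measured, with summed levels of 57.4 to 85.9 CPM that were mostly Lyz2, and of 4 endothelial markers 0 were. Whether these markers play a part in the results on lipid genes was not tested. In bulk RNA, fewer cells of a type and less RNA per cell cannot be told apart.

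Most lipid synthesis genes were lower in treated than in control cells, and most were higher at 48 h than at 24 h in control cells. The 36 genes had medians of -0.18 (24 h) and -0.36 (48 h) in log2 fold, against 0.02 and -0.09 over all 12160 genes tested. Lower values in treated cells were seen for 30 of 36 genes at 24 h and for 31 at 48 h, against 45.1% and 59.3% of all genes. At both times together 27 were lower (75.0%), against 33.2% of all genes. The sign differed between the times for 7 of the 36, against 37.9% of all genes. In 19 of the 36 genes both treated libraries lay below both controls, where 21.3% of all genes did, and in 0 genes both treated libraries lay above both controls, where 20.8% of all genes did. Between 24 h and 48 h in control the median log2 change was 0.20, with 32 of 36 genes higher, against a median of -0.02 and 45.8% of all genes. Control at 48 h was the highest of the 4 libraries for 27 of the 36 genes and for 18.1% of all genes. The fold at 48 h and the change with time in control share the 48 h control library, and the fold at 24 h and the change with time share the 24 h control library.

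**Figure D1:**
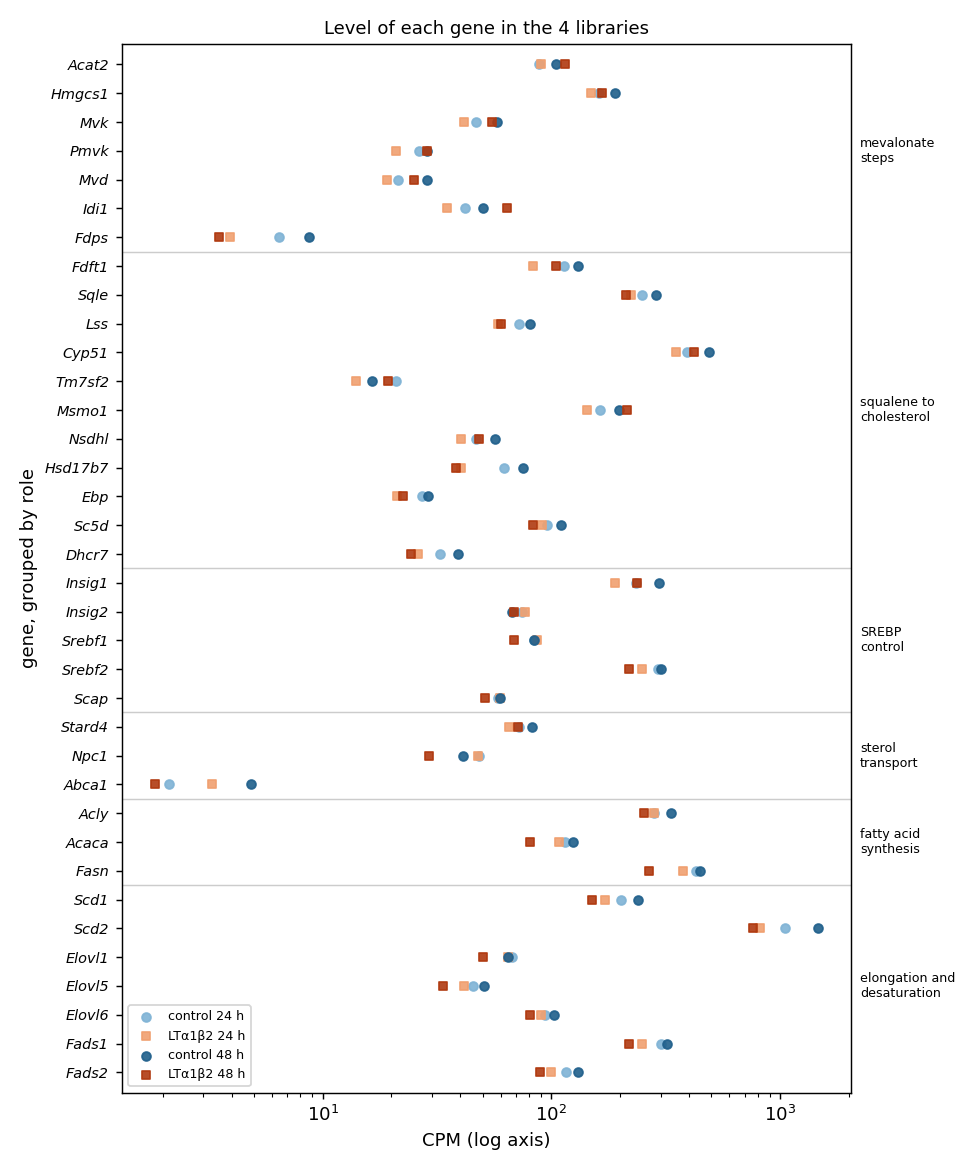
CPM of each gene (log axis) in the 4 libraries, with circles for control, squares for LTα1β2, pale colours for 24 h and dark colours for 48 h. The dark circle, control at 48 h, lies farthest to the right for 27 of the 36 genes.

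In the limma fit on all genes with time and treatment as additive terms, 3 of the 36 genes fell and 0 rose at an adjusted p of 0.05, against 2.27% and 2.92% of all genes. With limma voom on the recovered reads the counts were again 3 and 0. At an unadjusted limma p of 0.05, 14 of the 36 were lower in treated cells and 0 higher, against 7.72% and 8.54% of all genes. The genes that fell were Hsd17b7, Fdps and Scd2. The fit takes the 2 times as repeats, has 1 residual degree of freedom and gave each gene the spread typical of its level. With 10 prior degrees of freedom 0 of the 36 fell in limma (10 lower at an unadjusted p of 0.05, against 5.8% of all genes), where 0.206% of all genes did. Without a time term likewise 0 fell (11 lower unadjusted, against 4.88%), where 0.0905% of all genes did. Median-of-ratios rescaling left Hsd17b7 alone (1 gene, 0.641% of all genes), or 7 at infinite prior degrees of freedom (3.77%). With each library's trend with transcript length removed 7 fell (2.94%), adding Dhcr7, Scd1, Fads1 and Fads2, or 15 at infinite prior degrees of freedom (5.95%). Fits on 3 libraries can hold no time term. Without the treated 48 h library 15 fell (3.04% of all genes), and without the treated 24 h library 20 fell and 3 rose (25.2% and 15.5%). Without the 24 h control 0 of the 36 fell (4 lower unadjusted), where 0.0658% of all genes fell. Without the 48 h control 0 of the 36 fell (0 lower unadjusted), where 0.0493% of all genes fell. The share of all genes lower at an unadjusted p was not counted for these fits.

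Per kilobase of longest transcript, the level in control at 24 h ranged from 0.207 CPM (Abca1) to 193 CPM (Scd2). Scd2 was followed by Cyp51 (99.2), Sqle (90.7), Fads1 (87.4) and Insig1 (87.2). Scd1, a neighbouring stearoyl-CoA desaturase gene on chromosome 19, was at 41.8 CPM per kilobase. At the low end, Fdps was at 4.66 CPM per kilobase, below every one of the 36 except Abca1. The count of Fdps is uncertain, since Gm43738 on the same strand shares 1124 of its exonic bases.

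Against 45.1% and 59.3% of all genes, 6 of the 7 mevalonate genes were lower in treated cells at 24 h and 5 at 48 h. Their medians were -0.18 (24 h) and -0.07 (48 h) in log2 fold, the latter 0.02 with median-of-ratios rescaling and -0.17 with the length trend removed, and all 7 were higher at 48 h than at 24 h in control (median log2 change 0.26). Hmgcs1, which encodes the cytosolic HMG-CoA synthase, was at 161 CPM in the 24 h control library against 148 CPM in the treated one, and 191 against 166 CPM at 48 h. The treated library was the lower one at each time, but treated at 48 h was above control at 24 h, so the groups overlap. Its ratio was 0.919 at 24 h (0.868 to 0.973) and 0.870 at 48 h (0.819 to 0.924), and control was 1.18-fold higher at 48 h than at 24 h (1.12 to 1.25). Mvk, Pmvk and Mvd, which encode the mevalonate kinases and the diphosphate decarboxylase, had ratios of 0.795 to 0.899 at 24 h and 0.871 to 1.00 at 48 h. Acat2, the acetoacetyl-CoA thiolase gene, had ratios of 1.02 and 1.10. Its transcript matches Acat3 at 97.7% identity over 1477 bases, so reads can be shared.

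Idi1 encodes the isomerase that makes dimethylallyl diphosphate. It was at 42.0 CPM in the 24 h control library against 35.0 CPM in the treated one, and 50.5 against 64.2 CPM at 48 h. The treated libraries held both its lowest and its highest value. The ratio was 0.834 at 24 h (0.742 to 0.936) and 1.27 at 48 h (1.14 to 1.42), and treated cells were 1.83-fold higher at 48 h than at 24 h, against a control log2 change of 0.26. It was the only one of the 36 genes at least 1.5-fold higher with time in treated cells, where 6.83% of all genes were. The Idi1 transcript matches Gm13502 at 100% identity over 684 bases, so reads can be shared.

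Fdps, the farnesyl diphosphate synthase gene, was at 6.44 CPM in the 24 h control library against 3.94 CPM in the treated one, and 8.70 against 3.52 CPM at 48 h. Both treated libraries were below both controls. The ratios were 0.611 (0.436 to 0.850) and 0.405 (0.275 to 0.585), with a limma log2 fold of -0.85 ± 0.21 (SE, adjusted p = 0.00305). Its values rest on 40 to 114 reads a library. Gm43738, a gene on the same strand in GENCODE M21 (GRCm38), shares 1124 of its exonic bases, and 5 genes in all match its transcript at 95% identity or more over at least 300 bases, so the count of this gene is uncertain.

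Every gene of the squalene to cholesterol steps was lower in treated cells at 24 h, and 9 of 11 were at 48 h. Over all genes 45.1% and 59.3% were. The medians of these steps were -0.31 and -0.35 on the log2 scale (-0.23 at 48 h with the length trend removed). In control, 10 of the 11 were higher at 48 h (median 0.21). Hsd17b7, which encodes a keto-sterol reductase of the demethylation steps, was at 62.0 CPM in the 24 h control library against 40.2 CPM in the treated one, and 75.4 against 38.2 CPM at 48 h. The treated libraries lay close together and well below both controls. Its ratio was 0.650 at 24 h (0.586 to 0.719) and 0.507 at 48 h (0.452 to 0.568), with a limma log2 fold of -0.79 ± 0.17 (SE, adjusted p = 0.000402). In control it was 1.22-fold higher at 48 h than at 24 h (1.11 to 1.33), and in treated cells the ratio of 48 h to 24 h was 0.950.

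Dhcr7, the gene of the reductase that makes cholesterol from its dehydro precursor, was at 32.8 CPM in the 24 h control library against 26.0 CPM in the treated one, and 39.2 against 24.4 CPM at 48 h. Both treated values were below both controls. The ratios were 0.794 (0.695 to 0.907) and 0.622 (0.535 to 0.721), and the limma log2 fold of -0.49 ± 0.18 (SE) had an adjusted p of 0.0798. Tm7sf2, a sterol reductase gene, was at 20.9 CPM in the 24 h control library against 13.9 CPM in the treated one, and 16.5 against 19.3 CPM at 48 h. It was the one gene of these steps lower with time in control, and its treated values were not on one side of the controls. Its ratio was 0.666 at 24 h (0.558 to 0.794) and 1.17 at 48 h (0.965 to 1.42).

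Fdft1, the squalene synthase gene at the branch from the shared route to sterols, had ratios of 0.730 (0.678 to 0.784) and 0.796 (0.739 to 0.858). Its transcript matches Gm6781 at 97.4% identity over 1249 bases, and its exons overlap those of Ctsb on the opposite strand over 774 bases. In all, 9 of the 36 genes share exonic bases with an opposite-strand gene, Hmgcs1 (557 bases) and Idi1 (323 bases) among them, and without the strand setting such reads cannot be told apart. Sqle, the squalene epoxidase gene, had ratios of 0.894 and 0.740, and Lss, the lanosterol synthase gene, 0.807 and 0.744. Ebp, the sterol isomerase gene, had 0.777 and 0.775. In Fdft1, Sqle, Lss and Ebp both treated libraries were below both controls. Cyp51, the lanosterol demethylase gene, and Nsdhl, a sterol dehydrogenase gene, had ratios of 0.849 to 0.895 at either time, with treated at 48 h above control at 24 h. Sc5d, the lathosterol oxidase gene, had ratios of 0.956 and 0.756. Msmo1, the methylsterol monooxygenase gene, had a ratio of 0.879 at 24 h (0.830 to 0.931) and 1.08 at 48 h (1.02 to 1.14).

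**Figure D2:**
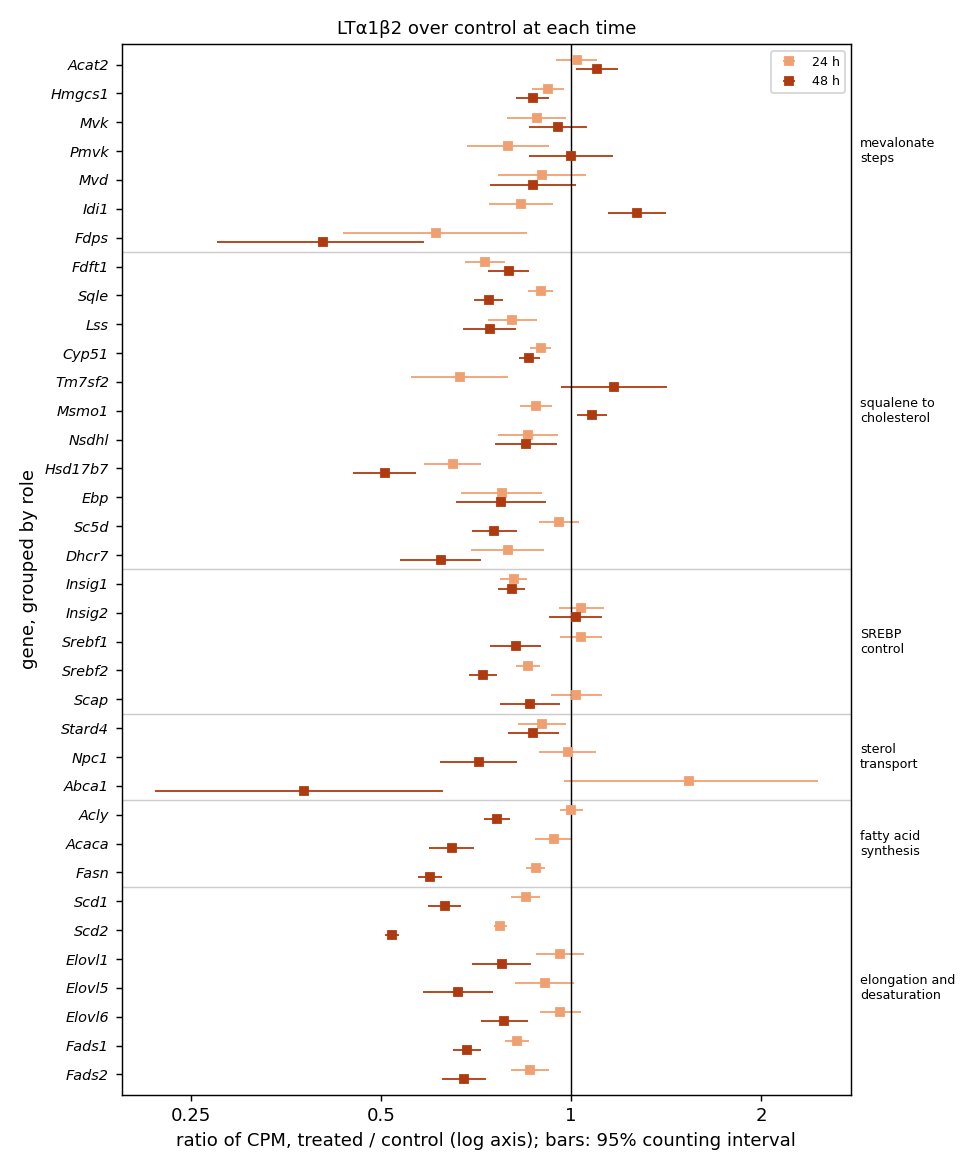
Ratio of CPM in LTα1β2 over control (log axis) at 24 h (pale) and 48 h (dark) for each gene, with 95% counting intervals as bars. Most points lie left of 1, and the 48 h points of Idi1, Msmo1, Tm7sf2, Acat2 and Insig2 lie right of it.

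Among the SREBP control genes the INSIG pair differed. Insig1, itself an SREBP target, was at 235 CPM in the 24 h control library against 191 CPM in the treated one, and 294 against 237 CPM at 48 h. It was lower in treated cells by nearly the same ratio at each time, 0.811 (0.772 to 0.851) and 0.805 (0.766 to 0.846), and 1.25-fold higher with time in control (1.197 to 1.31) and 1.24-fold in treated cells. Insig2 was at 74.2 and 77.0 CPM at 24 h and at 67.6 and 68.7 CPM at 48 h, with ratios of 1.04 (0.956 to 1.13) and 1.02 (0.922 to 1.12). The limma log2 folds were -0.31 ± 0.17 (SE, adjusted p = 0.383) for Insig1 and 0.04 ± 0.17 (SE, adjusted p = 0.954) for Insig2, and the difference between them was not tested.

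Srebf2, whose product acts mainly on sterol genes, was at 292 CPM in the 24 h control library against 249 CPM in the treated one, and 303 against 219 CPM at 48 h. Both treated values were below both controls, with ratios of 0.854 (0.817 to 0.891) and 0.725 (0.689 to 0.762). Srebf1, whose product acts mainly on fatty acid genes, was at 83.6 and 86.6 CPM at 24 h and at 83.8 and 68.5 CPM at 48 h. Only its treated 48 h value stood apart from the others, with ratios of 1.04 (0.959 to 1.12) and 0.818 (0.745 to 0.898). With the length trend removed its 48 h log2 fold was -0.12 instead of -0.29, and that of Srebf2 -0.25 instead of -0.46. Scap had ratios of 1.02 and 0.862.

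Of the sterol transport genes, Stard4, which encodes a cytosolic sterol carrier, had ratios of 0.899 (0.825 to 0.980) and 0.871 (0.794 to 0.955). Npc1, which exports cholesterol from lysosomes, was at 48.3 CPM in the 24 h control library against 47.7 CPM in the treated one, and 40.9 against 29.2 CPM at 48 h. It was lower at 48 h than at 24 h in both treatments, by ratios of 0.847 (0.757 to 0.947) in control and 0.613 in treated cells. Abca1, the cholesterol efflux transporter gene and a target of liver X receptors, was at 2.13 CPM in the 24 h control library against 3.27 CPM in the treated one, and 4.89 against 1.85 CPM at 48 h. Its order reversed between the times, on 21 to 64 reads a library. The ratio was 1.54 at 24 h (0.973 to 2.46) and 0.378 at 48 h (0.220 to 0.628), and control was 2.30-fold higher at 48 h than at 24 h (1.49 to 3.60). It was the only one of the 36 genes at least 1.5-fold higher with time in control, where 1.26% of all genes were.

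The fatty acid genes were nearer to control at 24 h and farther below it at 48 h. The 10 synthesis, elongation and desaturation genes had medians of -0.16 (24 h) and -0.57 (48 h) on the log2 scale, the latter -0.43 with the length trend removed and -0.48 with median-of-ratios rescaling. For all 10 the fold at 48 h was below that at 24 h, as it was for 61.6% of all genes. By comparison the 18 cholesterol enzyme genes had -0.24 and -0.23, and 11 of the 18 had the lower fold at 48 h. With the length trend removed these counts were 10 of 10 and 8 of 18, against 50.8% of all genes. The difference between these lists was not tested. As deposited, all 10 fatty acid genes were lowest in the treated 48 h library, where 50.3% of all genes had their lowest value. With the length trend removed, 5 of the 10 were higher at 48 h than at 24 h in treated cells, so these were not lowest there.

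Fasn, the fatty acid synthase gene, was at 429 CPM in the 24 h control library against 377 CPM in the treated one, and 448 against 268 CPM at 48 h. The controls were close together, both treated libraries were below them, and the treated 48 h library was lowest. The ratios were 0.878 (0.848 to 0.910) and 0.598 (0.572 to 0.625), and the limma log2 fold of -0.46 ± 0.18 (SE) had an adjusted p of 0.109. Acaca, the gene of the acetyl-CoA carboxylase that makes malonyl-CoA, was at 115 and 108 CPM at 24 h and at 124 and 80.3 CPM at 48 h. Its ratios were 0.938 (0.877 to 1.00) and 0.648 (0.597 to 0.703), and its transcript matches Gm5182 at 99.2% identity over 6118 bases. The longest transcripts of both genes, at 10050 and 9513 bases, are among the longest of the 36. With the length trend removed, their 48 h log2 folds were -0.37 instead of -0.74 and -0.26 instead of -0.62. Acly, the ATP citrate lyase gene that supplies cytosolic acetyl-CoA, had ratios of 1.00 (0.960 to 1.04) and 0.764 (0.729 to 0.801).

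Scd2 was the most abundant of the 36 genes. It was at 1052 CPM in the 24 h control library against 813 CPM in the treated one, and 1463 against 760 CPM at 48 h. Treated libraries were below both controls, and control at 48 h was the highest. The ratios were 0.772 (0.754 to 0.791) and 0.520 (0.507 to 0.533), with a limma log2 fold of -0.66 ± 0.19 (SE, adjusted p = 0.0152), and control was 1.39-fold higher at 48 h than at 24 h (1.36 to 1.42). Scd1 was at 202 and 171 CPM at 24 h and at 239 and 151 CPM at 48 h. It followed the same order of libraries, with ratios of 0.847 (0.804 to 0.892) and 0.631 (0.594 to 0.669) and a limma log2 fold of -0.45 ± 0.17 (SE, adjusted p = 0.109). The Scd2 transcript matches Scd1 at 95.5% identity over 623 of its 5455 bases.

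Elovl5, an elongase gene of polyunsaturated fatty acids, was at 45.6 CPM in the 24 h control library against 41.4 CPM in the treated one, and 50.6 against 33.6 CPM at 48 h, with ratios of 0.908 (0.814 to 1.01) and 0.663 (0.583 to 0.753). Fads1 and Fads2, neighbouring desaturase genes on chromosome 19, had ratios of 0.821 and 0.862 at 24 h and 0.684 and 0.677 at 48 h. Elovl1 and Elovl6, elongase genes of very long-chain and of palmitate-length fatty acids, both had 0.961 at 24 h and 0.777 and 0.784 at 48 h. All 7 elongation and desaturation genes had both treated libraries below both controls, as 21.3% of all genes did. With the length trend removed 6 of the 7 did, and 23.1% of all genes.

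**Figure D3:**
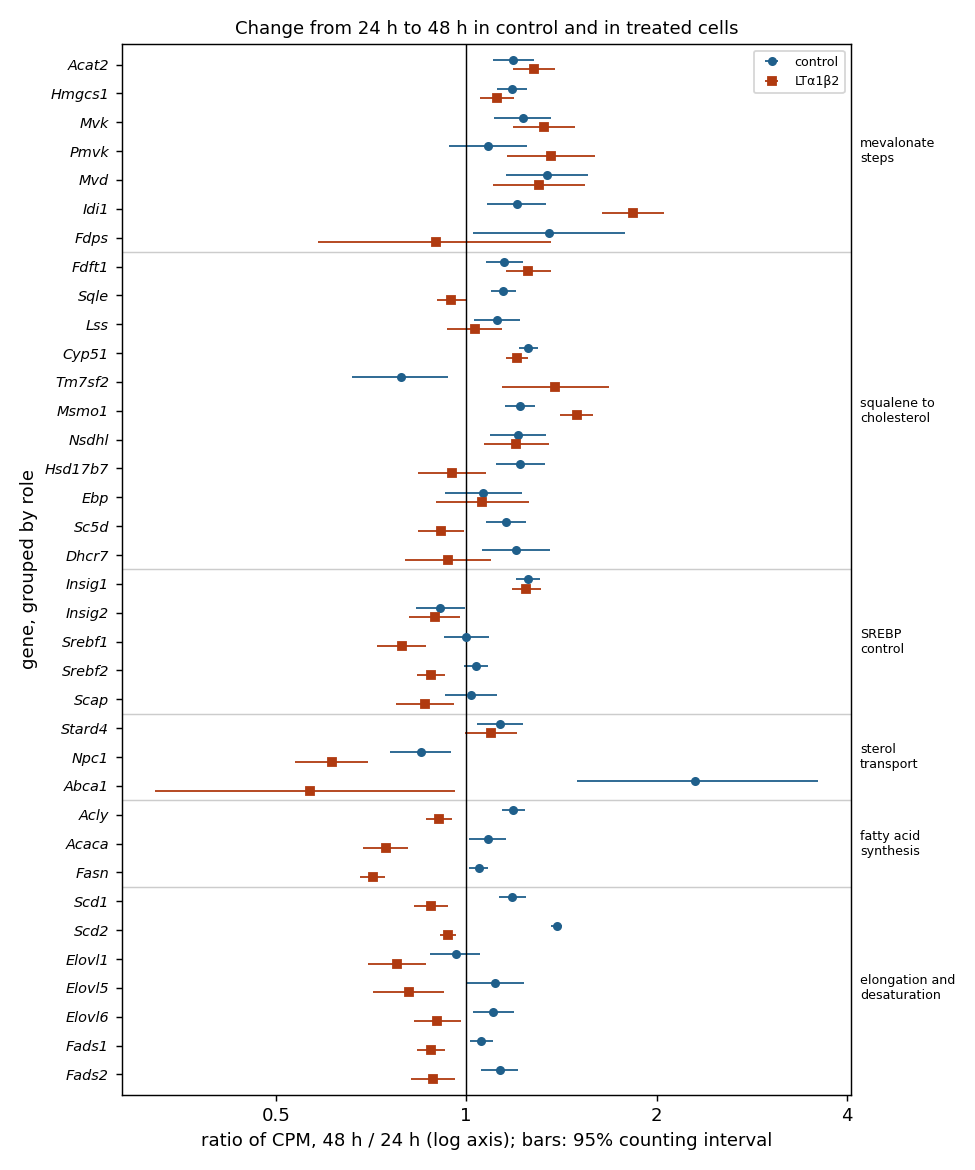
Ratio of CPM at 48 h over 24 h (log axis) in control (circles) and LTα1β2-treated cells (squares), with 95% counting intervals as bars. In control 32 of the 36 points lie right of 1, and in treated cells 15 do, of which 13 belong to the 18 cholesterol enzyme genes.

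With time in treated cells 35.7% of all genes were higher at 48 h than at 24 h. Of the 18 cholesterol enzyme genes 13 were higher (median log2 change 0.26), and of the 10 fatty acid genes 0 were (median -0.18). With the length trend removed 17 of the 18 and 5 of the 10 were higher, against 49.9% of all genes, and the medians were 0.30 and 0.00, against 0.00 over all genes. As deposited, the median over all genes in treated cells was -0.13, and it was 0.00 with median-of-ratios rescaling. In control the medians were 0.25 and 0.14.

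Folds at 48 h declined with transcript length, across all genes (Spearman's rho = -0.471) and across the 36 (rho = -0.497), while at 24 h the values were -0.025 and 0.273. These correlations run across genes of the same libraries, which are not independent replicates, and have no p. The cholesterol enzyme genes have a median longest transcript of 2504 bases and the fatty acid genes of 4629 bases. With the length trend removed, the 36 genes had medians of -0.19 (24 h) and -0.24 (48 h), and 16 of them had both treated libraries below both controls, where 23.1% of all genes did. The part of transcript length in the 48 h folds was not tested further.

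**Figure D4:**
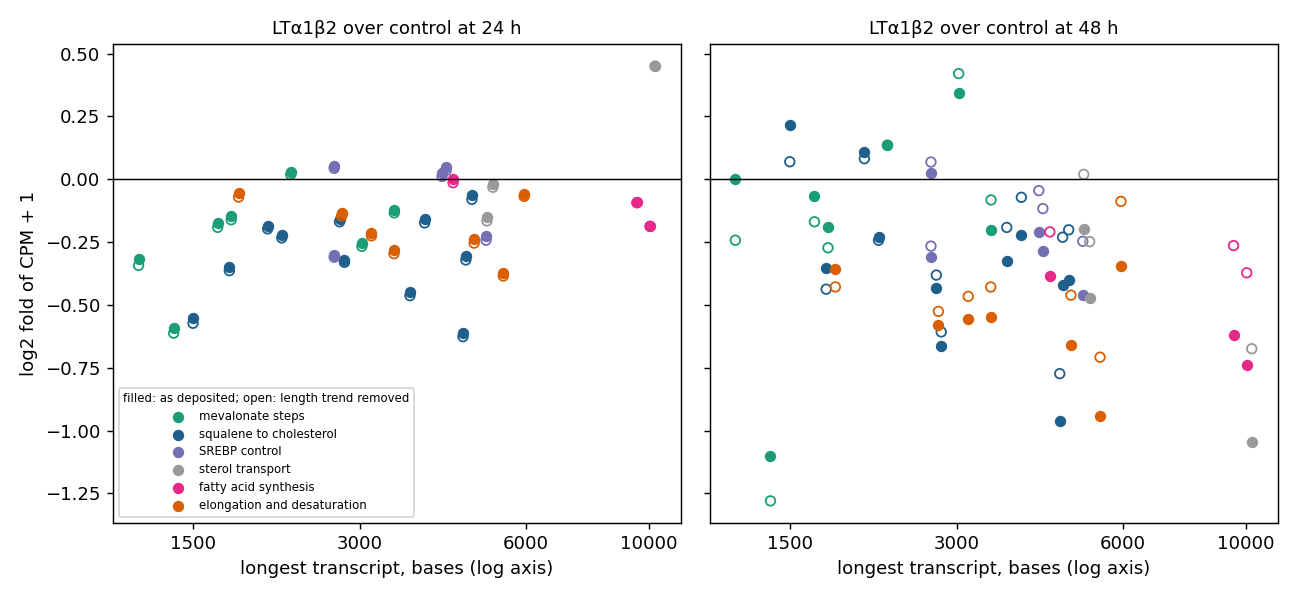
Log2 fold of CPM + 1 in LTα1β2 over control against the longest transcript (log axis) at 24 h (left) and 48 h (right) for the 36 genes, coloured by role. Filled points are as deposited and open points have the length trend removed; at 48 h the open points of Fasn and Acaca, with transcripts of 10050 and 9513 bases, lie above the filled ones.

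By the rule of size, 1.5-fold at a single time, 3 of the 36 genes were lower at 24 h (2.73% of all genes) and 1 was higher (2.63%). At 48 h 9 were lower (8.68% of all genes) and 0 were higher (9.05%). With time, 0 of the 36 were lower in control (2.81%) and 2 in treated cells (9.65%), Npc1 and Abca1.

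Other genes of the pathways were counted from wider lists. Of 33 further sterol genes 28 were tested: 1 rose, Npc2, and 0 fell (2.92% and 2.27% of all genes did), with median log2 folds of -0.05 and -0.20. Npc2, the soluble partner of Npc1 in lysosomes, was at 328 and 426 CPM at 24 h and at 307 and 552 CPM at 48 h, with a limma log2 fold of 0.61 ± 0.18 (SE, adjusted p = 0.0157).

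Of 35 further fatty acid and lipid assembly genes 29 were tested: 1 fell, Acsl3, and 0 rose, against the same 2.27% and 2.92%, with medians of -0.06 and -0.15. Acsl3, a long-chain acyl-CoA synthetase gene, was at 77.6 CPM in the 24 h control library against 60.1 CPM in the treated one, and 107 against 64.8 CPM at 48 h (limma log2 fold -0.54 ± 0.17 SE, adjusted p = 0.0332). Scd4 and Acss2, a further desaturase gene and the acetyl-CoA synthetase gene, had limma log2 folds of -0.55 and -0.41 and did not pass. Of 22 fatty acid oxidation genes 20 were tested and 0 passed in limma or limma voom, with medians of -0.03 and 0.09. At an unadjusted limma p of 0.05, 2 were higher and 0 lower in treated cells, against 8.54% and 7.72% of all genes. Decr1 and Eci1 had limma log2 folds of 0.40 and 0.39.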

How the data were processed

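The authors deposited 1 table of CPM for 12208 genes, with 1 column per library and each column summing to 1000000. The submitters' processing notes name edgeR 3.30.0. Aligner, counter, build and strand setting are not given in any source used here. All values were whole multiples of 1 read within 0.01, which gave the reads behind the exact 95% Clopper-Pearson intervals. The lowest value was 9 to 12 reads a library, so genes at lower levels are absent, also from the shares of all genes. Markers called not measured may be among these. Symbols, positions and longest transcripts came from GENCODE M21 (GRCm38; 12205 identifiers matched without versions), and promoters from RefSeq (GRCm38.p6). Copies (95% identity or more over at least 300 bases) were sought with blastn 2.17.0. They were found for 7 members: Acat2, Idi1, Fdps, Fdft1, Acaca, Scd2 and Elovl6.

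Log2 folds are of CPM + 1, which understates changes of low genes. A mean CPM of at least 1 left 12160 genes, tested two-sided with limma 3.58.1 in R 4.3.3 (empirical Bayes with a trend, Benjamini-Hochberg 0.05). The fit passed a check on simulated counts that held the same fold at both times and no length trend. Passing asked for recovery of the largest simulated fold and for few false calls, and set no bar for smaller folds. The check therefore does not cover the p-values of these libraries. Length trends were removed with lowess (span 0.3) of each library's deviation. Nothing says that libraries came from separate experiments, so p-values measure only the spread between these libraries. The members, lists and tests were chosen with earlier results of these data known. All 36 members are described, 16 of them in every library: those past the test, those 1.5-fold apart in any comparison and the Insig, Srebf and Scd pairs. Hmgcs1 was added for its promoter. From each wider list the 3 genes with the largest mean fold were taken, and some of these are not reported here.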

Additional observations from a re-analysis of the deposited data

Results flagged for a closer look

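For 7 of the 36 genes the treatment fold had opposite signs at 24 h and 48 h, against 37.9% of all genes. The difference in log2 fold, 48 h minus 24 h, was 0.60 for Idi1, 0.77 for Tm7sf2 and 0.29 for Msmo1, which were lower in treated cells at 24 h and higher at 48 h. It was -0.34 for Srebf1, -0.24 for Scap, -1.50 for Abca1 and -0.39 for Acly, which were higher at 24 h and lower at 48 h. In 2 of the 7, Idi1 and Msmo1, both counting intervals excluded a ratio of 1. The difference between the times was not tested in any of the 7, since each group is 1 library.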

How the results depend on the processing

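The 36-gene medians at 24 h, at 48 h and with time in control kept their direction under pseudocounts of 0.25 and 5, no filter, a mean CPM of at least 5, median-of-ratios rescaling and length-trend removal, ranging from -0.19 to -0.17, from -0.36 to -0.24 and from 0.19 to 0.23. With time in treated cells the median of -0.09 became 0.042 with median-of-ratios rescaling and 0.11 with the length trend removed. The 3 genes that fell became 1 with median-of-ratios rescaling (7 at infinite prior degrees of freedom), 7 with the length trend removed (15 at infinite ones), and 0 with 10 prior degrees of freedom or no time term. Leaving out 1 library gave 0 to 20 that fell and 0 to 3 that rose. Such fits put the log2 fold of Idi1 between -0.38 (treated 48 h library left out) and 0.47 (treated 24 h library left out), and that of Msmo1 between -0.32 and 0.25 likewise. With 1 treated library left and no time term, such a fit sets that library against both controls. These folds of Idi1 and Msmo1 therefore restate the difference between the times. The ratios were 0.834 at 24 h and 1.27 at 48 h for Idi1, and 0.879 and 1.08 for Msmo1. The cause of that difference was not tested. Infinite prior degrees of freedom and voom were chosen after seeing the data. edgeR on recovered reads was not run. The labels give no replicate numbers, so libraries could be paired by time only, which the time term of the fit does. At the lowest levels, Abca1 and Fdps, depth limits the ratios.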
